A study of Mus musculus with 36 samples.

Results

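Antigen presentation was followed through 10 genes, chosen by name, of the 55291 gene symbols in the count and TPM tables of a mouse study of the heart in myotonic dystrophy type 1. The 7 genes of the class I route are H2-K1, H2-D1, B2m, Tap1, Tap2, Psmb8 and Psmb9, and the 3 genes of the class II route are H2-Aa, H2-Ab1 and Cd74. All 10 passed the filter on low counts, so no member was lost. TPM is the authors' RSEM estimate of a transcript's share of a library after scaling by its length, and levels below are TPM unless a log2 fold change is named.

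The mice were CUG960 bitransgenic animals, TREDT960I (Hom)/MHCrtTA (Hem), in which a cardiomyocyte promoter drives the rtTA activator and rtTA with doxycycline (dox) turns on a human DMPK transcript with a long tract of interrupted CUG repeats (CUGexp RNA). Both transgenes were carried by every cohort, the –dox animals included. The +dox cohort received dox chow from postnatal day 1 and no virus. The +/–dox cohort was taken off dox at 9 weeks, and the –dox cohort never received it. Dox was kept in the 3 MBNL cohorts (MBNL1, MBNL2, MBNL1+MBNL2), whose mice were given, at 9 weeks, AAV9 vectors with a heart-specific promoter for tagged human MBNL1, MBNL2 or both. No library of dox-fed mice given a control virus was among the samples, so virus and cDNA cannot be told apart in the MBNL cohorts. Every cohort kept on dox also expressed the CUGexp RNA, so dox itself and the RNA cannot be told apart in the –dox and +/–dox comparisons. RNA of the left ventricle and of the atria was taken at 21 weeks from the same 3 animals of each of the 6 cohorts, as the study's sample list gives them, which makes 36 libraries in 12 groups.

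Class I molecules are found on nearly all nucleated cells and show peptides from the inside of the cell to CD8 T cells. H2-K1 and H2-D1 are the heavy chains of the classical class I molecules and B2m (beta 2-microglobulin) is their light chain. Tap1 and Tap2 form the transporter that carries peptides into the endoplasmic reticulum, and Psmb8 and Psmb9 are the inducible catalytic subunits that replace Psmb5 and Psmb6 in the immunoproteasome. Class II molecules show peptides taken up from outside to CD4 T cells and are made mostly by dendritic cells, B cells and activated macrophages. H2-Aa and H2-Ab1 are the alpha and beta chains of the class II molecule I-A, and Cd74 (the invariant chain) guides it to the endosome. Interferon gamma raises both routes through IRF1 and the transactivators NLRC5 (class I) and CIITA (class II). In heart muscle the cardiomyocytes hold little class I and no class II at rest, whereas resident macrophages and dendritic cells hold both.

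On the GRCm38 annotation, 8 of the 10 genes lie on chromosome 17. H2-K1 occupies 33996017 to 34000347 on the minus strand, and H2-D1 lies at 35262730 to 35267499 on the plus strand. Between them stand Psmb9 (34181987 to 34187764, minus strand), Tap1 (34187553 to 34197225), Psmb8 (34197721 to 34201454), Tap2 (34203527 to 34216321), H2-Ab1 (34257689 to 34269419) and H2-Aa (34282744 to 34287823, minus strand). B2m is on chromosome 2, at 122147686 to 122153083. The 5′ ends of Psmb9 and Tap1 overlap on opposite strands, Psmb8 and Tap2 overlap an antisense gene, and B2m overlaps Patl2. The strand setting of the counting was not given in the sources used here, so reads of these overlaps cannot be assigned with certainty. H2-K1, H2-D1 and the H2-Q genes are closely related paralogs whose shared reads RSEM divides by estimate, and the rtTA line is on the FVB/N background while the reference genome is C57BL/6J, so the level of any H2 gene carries an alignment error of unknown size.

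The start regions of 5 members are shown. These genes moved together from library to library, but so did Psmb8 and Psmb9, whose windows are not shown. RefSeq windows on GRCm38.p6 were matched for 7 of the 10 members, each with 250 bases before and 50 bases after the start. The windows are those of H2-K1 (chr17:34000284-34000583, minus strand), H2-D1 (chr17:35262844-35263143, plus), B2m (chr2:122147437-122147736, plus), Tap1 (chr17:34187306-34187605, plus) and H2-Aa (chr17:34287774-34288073, minus). Capitals mark the motifs AANNGAAA (IRF core), the ISRE core (GAAA repeated after 2 bases, which contains an IRF core), TTCNNNGAA (GAS), CCAAT and the kappaB consensus, each searched on both strands.
H2-K1: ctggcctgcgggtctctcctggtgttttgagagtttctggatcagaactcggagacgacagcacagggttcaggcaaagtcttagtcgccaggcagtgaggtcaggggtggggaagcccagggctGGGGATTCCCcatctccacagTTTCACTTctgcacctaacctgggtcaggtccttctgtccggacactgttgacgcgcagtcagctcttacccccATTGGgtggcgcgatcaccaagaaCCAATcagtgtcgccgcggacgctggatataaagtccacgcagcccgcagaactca
H2-D1: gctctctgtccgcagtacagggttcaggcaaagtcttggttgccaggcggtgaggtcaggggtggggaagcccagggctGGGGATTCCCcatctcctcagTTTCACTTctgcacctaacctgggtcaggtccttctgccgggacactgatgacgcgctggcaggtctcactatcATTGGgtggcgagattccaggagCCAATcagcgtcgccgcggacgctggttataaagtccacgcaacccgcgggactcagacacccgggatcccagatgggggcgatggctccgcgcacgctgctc
B2m: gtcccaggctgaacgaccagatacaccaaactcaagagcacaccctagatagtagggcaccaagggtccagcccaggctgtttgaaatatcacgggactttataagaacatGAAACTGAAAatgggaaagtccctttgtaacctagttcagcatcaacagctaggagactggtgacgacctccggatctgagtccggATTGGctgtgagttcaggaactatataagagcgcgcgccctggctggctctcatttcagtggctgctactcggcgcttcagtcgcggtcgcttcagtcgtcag
Tap1: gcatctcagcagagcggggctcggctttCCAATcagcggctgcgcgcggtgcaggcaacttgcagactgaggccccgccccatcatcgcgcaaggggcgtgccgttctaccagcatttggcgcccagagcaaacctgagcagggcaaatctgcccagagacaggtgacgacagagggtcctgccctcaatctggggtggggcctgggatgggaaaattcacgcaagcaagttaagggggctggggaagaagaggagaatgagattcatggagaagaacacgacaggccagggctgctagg
H2-Aa: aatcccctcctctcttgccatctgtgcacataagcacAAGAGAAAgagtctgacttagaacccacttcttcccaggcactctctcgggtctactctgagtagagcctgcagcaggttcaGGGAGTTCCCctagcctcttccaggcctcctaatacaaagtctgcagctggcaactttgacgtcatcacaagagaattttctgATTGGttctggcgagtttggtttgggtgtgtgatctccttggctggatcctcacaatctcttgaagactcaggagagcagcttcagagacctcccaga
A kappaB match stood in the windows of H2-K1, H2-D1 and H2-Aa and in 1.8% of all 32851 windows searched. The ISRE core was found in the B2m window, 139 bases before the start, and in 3.4% of all windows. The IRF core was present in H2-K1, H2-D1, B2m and H2-Aa and in 23.9% of all windows, and CCAAT was in all 5 shown and in 37.4% of all windows. GAS letters were found in the window of Psmb8 alone among the members matched, against 8.3% of all windows. The Psmb8 window held none of the other motifs, CCAAT included, and that of Psmb9 held CCAAT alone. The Tap1 window shares 275 bases with that of Psmb9 on the opposite strand, so the pair is not counted as separate evidence. A match is only a match of letters and is not a tested site.

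The expected counts summed to between 55.03 and 97.09 M reads per library. Summed TPM of the ventricle markers Myl2, Myl3 and Irx4 was 19777 to 27744 in the ventricular libraries and 38.4 to 805 in the atrial libraries, so each tissue matched its label. Library names fall into a set A (replicates 1 and 2 of every cohort but MBNL1+MBNL2) and a set B (replicate 3 of those cohorts and all MBNL1+MBNL2 libraries). Xist exceeded Ddx3y, the pattern of females, in 10 of the 36 libraries, which are replicate 3 in both tissues of every cohort but MBNL1+MBNL2. Sex and library set therefore cannot be told apart outside the MBNL1+MBNL2 cohort, which is all male and all set B. Neither the labels nor the sample list tie a replicate number to an animal, but with 1 female in each of those 5 cohorts the ventricle and atria of replicate 3 there came from 1 animal. For the other replicates a shared number was taken as 1 animal only in the paired fits between tissues.

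Among the +dox animals, class I and class II genes ranged from near the –dox level to many times above it. B2m was at 615, 268 and 1593 TPM in +dox ventricles 1, 2 and 3, against 138, 230 and 169 TPM in –dox ventricles. Replicate 3 stood far above the others, replicate 2 was near the highest –dox library, and no +dox library overlapped the –dox range. The +dox mean was 825 ± 687 TPM (SD, n = 3) and the –dox mean 179 ± 47.2 TPM (SD, n = 3), so the SD of the +dox cohort was nearly as large as its mean. Relative to the –dox mean of each gene, the median over the 10 members was 3.21-fold in +dox ventricle 1, 1.18-fold in ventricle 2 and 8.28-fold in ventricle 3. In the atria the same medians were 1.61-fold, 1.296-fold and 3.88-fold. Replicate 3 of the +dox cohort ranked highest of the 18 ventricular libraries for all 10 members, and highest of the 18 atrial libraries for 9, the exception being H2-K1, where MBNL1 replicate 3 was higher.

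**Figure D1:**
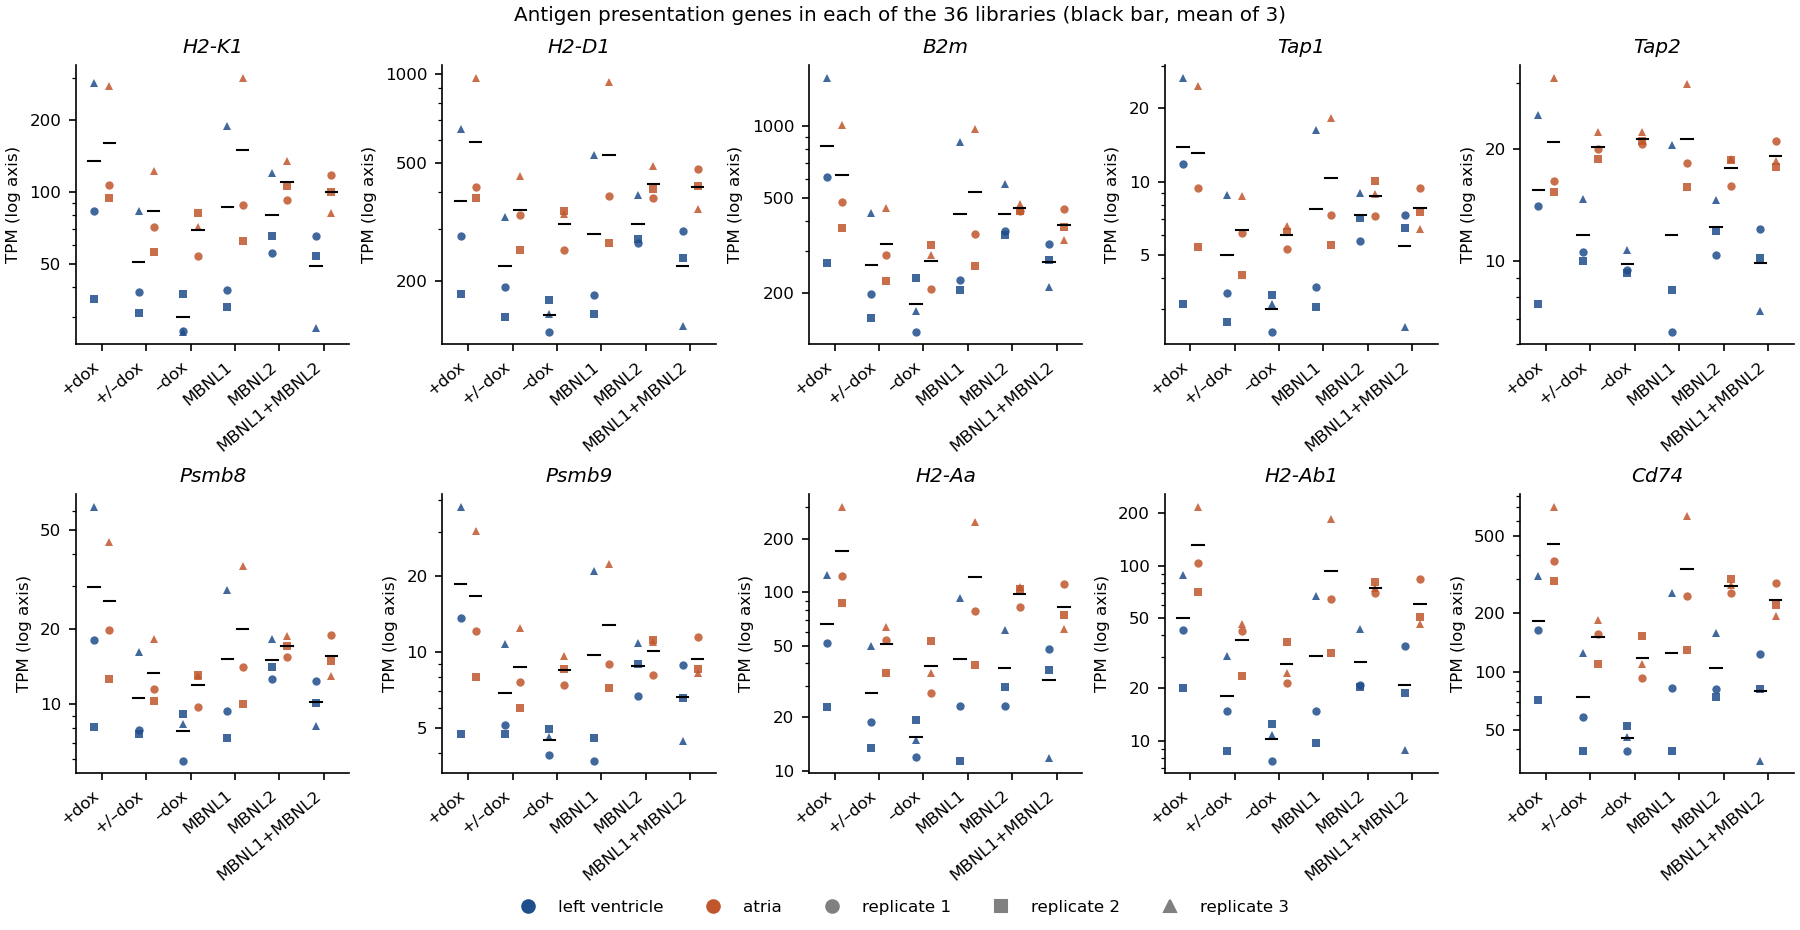
TPM of each of the 10 genes (log axis) by cohort, with 1 symbol per library, colour for the tissue, symbol shape for the replicate number and a black bar for the mean of 3. Replicate 3 of the +dox and MBNL1 cohorts stands above the other libraries in nearly every panel, and Tap2 has the smallest spread (6.47 to 24.7 TPM in ventricles, 15.3 to 31.0 TPM in atria).

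The heavy chains followed the same pattern. H2-K1 was at 83.05, 35.8 and 286 TPM in +dox ventricles and at 26.3, 37.6 and 26.1 TPM in –dox ventricles, so that +dox replicate 2 lay inside the –dox range. H2-D1 was at 283, 180 and 653 TPM in +dox ventricles and at 134, 172 and 154 TPM in –dox ventricles, a separation of 180 from 172 TPM at its closest. In the atria H2-K1 was at 107, 94.6 and 277 TPM in +dox mice against 54.2, 81.6 and 71.7 TPM in –dox mice, with no overlap. H2-D1 exceeded H2-K1 in all 36 libraries, by 2.29- to 5.88-fold in ventricles and 3.15- to 4.70-fold in atria, a comparison between paralogs that depends on how shared reads were divided. The lowest ratio came from +dox replicate 3 in ventricles and from MBNL1 replicate 3 in atria, and H2-K1 ranged over 10.9-fold across ventricular libraries where H2-D1 ranged over 4.87-fold.

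The genes that supply peptides were less abundant and, Tap2 apart, as variable. Tap1 was at 11.8, 3.13 and 26.7 TPM in +dox ventricles and at 2.41, 3.40 and 3.12 TPM in –dox ventricles. Psmb8 was at 18.1, 8.10 and 62.2 TPM against 5.94, 9.13 and 8.36 TPM, and Psmb9 at 13.7, 4.73 and 37.7 TPM against 3.93, 4.95 and 4.62 TPM. For these 3 genes +dox replicate 2 fell within the –dox range while replicates 1 and 3 lay above it. Tap2, the partner of Tap1 in the transporter, was at 14.0, 7.67 and 24.7 TPM in +dox ventricles and at 9.45, 9.32 and 10.7 TPM in –dox ventricles. It ranged over 3.82-fold across ventricular libraries, where Tap1 ranged over 11.1-fold. In the atria Tap2 was at 16.4, 15.3 and 31.0 TPM in +dox mice and at 20.6, 20.9 and 22.1 TPM in –dox mice, so 2 of the 3 +dox libraries lay below all –dox libraries.

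Psmb8 and Psmb9 can be set beside the constitutive subunits that they replace. The TPM ratio of Psmb8 to Psmb5 ranged from 0.067 to 0.70 over ventricular libraries with a median of 0.114, and from 0.0831 to 0.356 over atrial libraries. Psmb9 to Psmb6 ranged from 0.0241 to 0.240 in ventricles and from 0.0287 to 0.138 in atria. Psmb5 itself was at 79.6 to 127 TPM and Psmb6 at 148 to 197 TPM in ventricles, so the constitutive transcripts exceeded the inducible ones in every library of both tissues.

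The class II genes separated –dox from +dox in both tissues. Cd74 was at 164, 71.5 and 311 TPM in +dox ventricles and at 39.1, 52.5 and 46.0 TPM in –dox ventricles. In the atria it was at 371, 292 and 706 TPM in +dox mice and at 92.9, 153 and 109 TPM in –dox mice. The lowest +dox library was above the highest –dox library in each tissue. H2-Aa was at 51.9, 22.8 and 126 TPM against 12.0, 19.2 and 14.9 TPM in ventricles, and at 124, 86.9 and 302 TPM against 27.4, 53.4 and 35.3 TPM in atria. H2-Ab1 was at 43.1, 20.2 and 88.0 TPM against 7.76, 12.5 and 10.8 TPM in ventricles, and at 104, 70.4 and 216 TPM against 21.3, 36.9 and 24.6 TPM in atria. None of these 6 pairs of groups overlapped, in the same direction as 18.1% of all genes in ventricles and 20.8% in atria, and in ventricles the margin of H2-Aa was from 22.8 to 19.2 TPM. Summed over the 3 genes, class II was 13.9% to 28.6% of the class I sum in ventricles and 22.6% to 56.5% in atria.

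The fitted comparison of –dox with +dox asks which genes differ where dox was never given and the CUGexp RNA was never induced. Differences were tested with edgeR's quasi-likelihood test over 19231 genes, and calls needed both an adjusted p (Benjamini-Hochberg) below 0.05 and a change of 1.5-fold or more. The spread of a gene was estimated over all 36 libraries of both tissues. They were taken as independent, although ventricle and atria came from the same animals. In ventricles 7 of the 10 members were called, all lower in –dox mice, where 7.6% of all genes tested were called and 4.13% were called lower. The members' median log2 fold change was −1.98, against 0.0087 over all genes tested. Called members were B2m (log2 fold change −2.12 ± 0.57 SE, adjusted p = 0.00888), H2-Ab1 (−2.21 ± 0.69, 0.0237), Tap1 (−2.12 ± 0.66, 0.0226), H2-K1 (−2.07 ± 0.67, 0.0300), Psmb9 (−1.97 ± 0.61, 0.0231), Cd74 (−1.91 ± 0.61, 0.0267) and Psmb8 (−1.83 ± 0.56, 0.0222). H2-Aa at −2.00 ± 0.72 (edgeR adjusted p = 0.0509), H2-D1 at −1.21 ± 0.46 (0.0624) and Tap2 at −0.59 ± 0.32 (0.208) did not pass. By TPM, all 3 –dox ventricles were below all 3 +dox ventricles for 5 members (H2-D1, B2m and the 3 class II genes), where 18.1% of all genes did the same.

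The ventricular calls depended on single libraries. Without +dox replicate 3 0 of the 10 members were called by edgeR, the smallest adjusted p was 0.118 (B2m), and the median log2 fold change was −1.14 with all 10 members still below 0. Without –dox replicate 1 or replicate 3, 1 member was called. With the spread taken from the compared libraries alone 0 members were called, and limma called 3. Within set A, which leaves 2 males in each group, 1 member was called (B2m, −1.18, edgeR adjusted p = 0.0448) and the median was −1.08. With library set as a term, 9 members were called and the median was −1.70. For alternative fits of a cohort against +dox, here and below, the share of all genes called is not given. A change in such a count is therefore not read as particular to the members. In +dox ventricle 3 the summed TPM of 20 interferon-induced genes was 1299, of which the GTPases Igtp (796) and Irgm1 (153) made up most, against 369 and 78.7 in +dox ventricles 1 and 2 and 76.4 to 98.0 in –dox ventricles. The 12 markers of T cells and NK cells summed to 9.07 TPM there, against 2.59 and 1.49 TPM in the other +dox ventricles and 1.57 to 1.76 TPM in –dox ventricles. Of those 12 markers, 9 were at 0 in at least 1 ventricular library and none was at 0 in all 18. The library was also 1 of the 5 female ventricular libraries. In the others the median over the members was 5.14-fold (MBNL1), 3.10-fold (MBNL2), 2.57-fold (+/–dox) and 1.015-fold (–dox) of the –dox mean. The part of interferon-induced genes, lymphocytes, sex or library set in the result was not tested, and in bulk tissue fewer cells of a type and less RNA per cell cannot be told apart.

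In atria 3 of the 10 members were called in –dox against +dox mice, all lower, where 5.23% of all genes were called and 2.4% were called lower. They were the 3 class II genes, H2-Ab1 (log2 fold change −2.17 ± 0.68 SE, edgeR adjusted p = 0.0285), Cd74 (−1.89 ± 0.61, 0.0339) and H2-Aa (−2.09 ± 0.71, 0.0479). The class I genes H2-K1 (−1.14 ± 0.65, 0.261), B2m (−1.14 ± 0.55, 0.173), Tap1 (−1.06 ± 0.63, 0.286), Psmb8 (−1.05 ± 0.55, 0.213), Psmb9 (−0.91 ± 0.59, 0.330) and H2-D1 (−0.86 ± 0.46, 0.218) did not pass the edgeR test, and Tap2 was at 0.08 ± 0.32 (0.903). The median over the 10 was −1.10, with 9 below 0, against 0.0275 over all genes. All 3 –dox atria were below all 3 +dox atria for 6 members (H2-K1, H2-D1, B2m and the class II genes), where 20.8% of all genes did the same. Without any 1 of +dox replicates 1 and 3 and –dox replicates 1 and 3, 0 members were called by edgeR, and without –dox replicate 2, 1 was. With the compared libraries alone 1 member was called, and with no filter 0. Without +dox replicate 3 the class II genes were at −1.48 (H2-Aa), −1.50 (Cd74) and −1.67 (H2-Ab1), with adjusted p of 0.202, 0.127 and 0.121. Within set A, 0 members were called and these 3 genes were at −1.37, −1.40 and −1.56, with edgeR adjusted p of 0.0969, 0.0732 and 0.0548. The class I members lay between −0.66 and −0.26 without replicate 3, with Tap2 at 0.41.

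**Figure D2:**
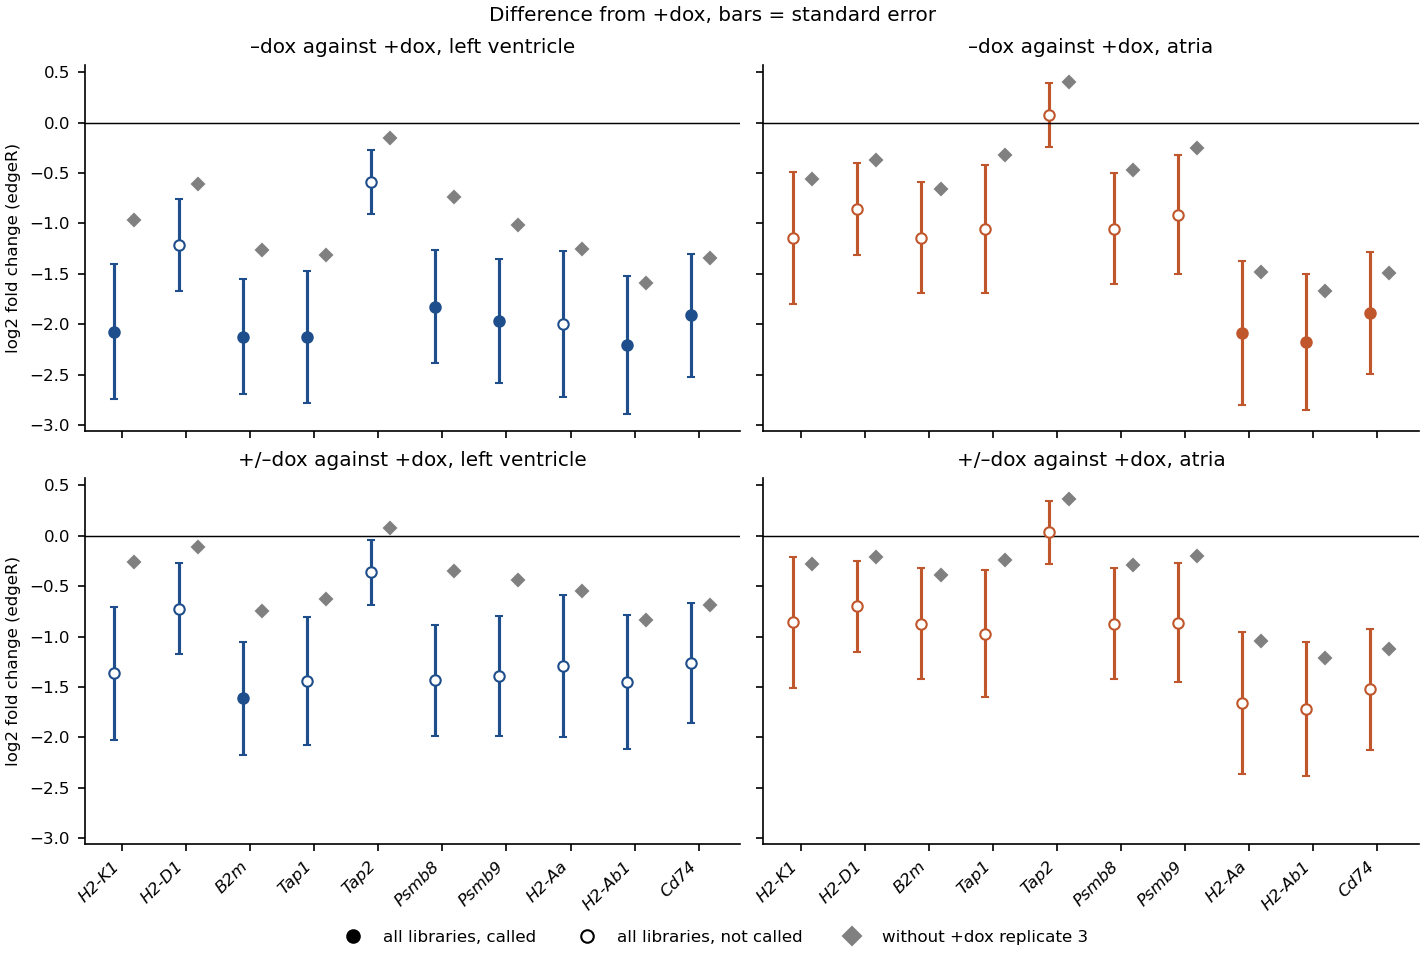
Fitted log2 fold change of each gene (vertical axis, edgeR) in –dox and +/–dox against +dox mice of each tissue, with bars for 1 standard error, filled circles for called genes and grey diamonds for the fit without +dox replicate 3 of that tissue. In ventricles 7 genes are called for –dox and 1 for +/–dox, and in atria only the class II genes for –dox, while every diamond lies nearer to 0 than its circle or, for Tap2 in the atria and in +/–dox ventricles, above 0.

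Withdrawal of dox at 9 weeks gave a like direction with fewer calls. In +/–dox ventricles B2m was at 199, 157 and 432 TPM, H2-K1 at 38.2, 31.2 and 83.2 TPM and Cd74 at 58.8, 39.1 and 125 TPM, and in each gene replicate 3 lay above the other 2 and inside the +dox range. B2m was the 1 member called (log2 fold change −1.61 ± 0.56 SE, edgeR adjusted p = 0.0397), where 6.6% of all genes were called and 3.52% were called lower. The count was 5 with a library set term or a sex term and 2 with DESeq2 or a replicate block, and it was 0 with no filter, with the compared libraries alone or with limma. In the edgeR fit the other 9 members lay between −0.36 (Tap2) and −1.45 (H2-Ab1), with adjusted p of 0.0663 (Psmb8) or more, and the median of all 10 was −1.38. For 0 members were all +/–dox ventricles below all +dox ventricles, against 16.9% of all genes. Without +dox replicate 3 of this tissue B2m was at −0.75 (edgeR adjusted p = 0.395), the median was −0.50 and 9 members were below 0. Within set A, B2m remained called at −1.25 (adjusted p = 0.0359, edgeR) and the median was −1.04.

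In +/–dox atria 0 members were called by edgeR, where 3.99% of all genes were called. At an unadjusted p below 0.05 there were 3 (the class II genes), where 4842 of all 19231 genes had such a p, and DESeq2 called 2 and limma 0. H2-Ab1 (−1.72 ± 0.66, edgeR adjusted p = 0.0963), Cd74 (−1.52 ± 0.60, 0.103) and H2-Aa (−1.66 ± 0.70, 0.136) had the largest differences, while the 6 class I members other than Tap2 lay between −0.70 and −0.97. Cd74 was at 157, 110 and 185 TPM in these atria, all below the lowest +dox value of 292 TPM. The 3 class II genes were the members whose +/–dox atria all lay below the +dox atria, where 21.8% of all genes did so. Between –dox and +/–dox mice 0 members were called by edgeR in ventricles, where 0.0312% of all genes were called, and 0 in atria, where 0.0104% were called, and 0 members had an unadjusted p below 0.05 or were called by DESeq2 or limma in either tissue. Of all 19231 genes, 1586 in ventricles and 907 in atria had such a p. The members' median log2 difference, –dox less +/–dox, was −0.61 in ventricles and −0.22 in atria.

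The MBNL cohorts ask whether added MBNL protein moves the genes from their +dox level while the CUGexp RNA stays on. No member was called by edgeR in any of the 6 comparisons with +dox mice, in which 2.66% (MBNL1), 1.52% (MBNL2) and 2.65% (MBNL1+MBNL2) of all genes were called in ventricles and 0.13%, 0.0052% and 0.26% in atria. At an unadjusted p below 0.05 there were 6 members in MBNL1+MBNL2 ventricles (H2-K1, B2m, Tap1, Tap2, Psmb8 and Psmb9), where DESeq2 called 2 and limma 0, and 0 members in the other 5 comparisons, where DESeq2 and limma called 0 too. Of all 19231 genes, 4254 had such a p in MBNL1+MBNL2 ventricles. In the others it was between 831 (MBNL2 atria) and 4733 (MBNL1 ventricles). With library set as a term 9 members were called in MBNL1+MBNL2 ventricles, but all libraries of that cohort are of set B, so in that fit the cohort is set apart from +dox mice through replicate 3 of the other cohorts. The MBNL1 cohort was split between its libraries. B2m was at 228, 206 and 857 TPM in MBNL1 ventricles and at 354, 259 and 973 TPM in MBNL1 atria, and Cd74 at 82.4, 39.1 and 254 TPM and at 245, 129 and 637 TPM. Replicate 3 thus lay between +dox replicates 1 and 3 in B2m and Cd74 of both tissues. Replicates 1 and 2 lay below +dox replicate 2 in B2m of both tissues. MBNL1 replicate 3 ranked second highest of the 18 ventricular libraries for all 10 members.

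In the MBNL2 cohort the libraries lay closer together. B2m was at 365, 349 and 570 TPM in ventricles and at 440, 443 and 474 TPM in atria, which is inside the +dox range in each case. H2-K1 was at 55.6, 65.7 and 120 TPM in MBNL2 ventricles. In MBNL1+MBNL2 ventricles the order of replicates was another one, with B2m at 321, 274 and 211 TPM, H2-K1 at 65.5, 53.8 and 27.1 TPM and Cd74 at 123, 81.4 and 35.0 TPM, so that replicate 3 was the lowest. All 3 of those libraries are of set B and male, and replicate 3 was within or below the –dox range for H2-K1, B2m and Cd74.

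The members' median log2 fold change against +dox was −0.75 (MBNL1), −0.95 (MBNL2) and −1.34 (MBNL1+MBNL2) in ventricles, with all 10 below 0 each time. In atria it was −0.37, −0.53 and −0.75, with 9, 10 and 10 below 0. These 10 comparisons of a cohort with +dox use the same 3 +dox libraries per tissue, so that their common direction is not independent. Without +dox replicate 3 the ventricular medians were −0.0077, −0.19 and −0.49, and the atrial medians 0.24, 0.06 and −0.17. The number of members below 0 was then 6, 7 and 10 in ventricles and 1, 4 and 9 in atria. Within set A the medians were −0.97 and −0.37 in ventricles and −0.45 and −0.0054 in atria for MBNL1 and MBNL2, and MBNL1+MBNL2 has no library there.

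The order of the cohort means was nearly the same for every member. In ventricles the +dox mean was the highest and the –dox mean the lowest of the 6 cohorts for all 10 members, and in atria for 9, the exception being Tap2. For B2m in ventricles the means ran +dox 825 ± 687, MBNL1 430 ± 370, MBNL2 428 ± 124, MBNL1+MBNL2 269 ± 54.7, +/–dox 263 ± 149 and –dox 179 ± 47.2 TPM (SD, n = 3 each). In that gene the neighbours MBNL2 and MBNL1+MBNL2 did not overlap, which was not tested, and the other 4 pairs of neighbours did. Over all members, neighbouring cohorts in the order had overlapping libraries in 49 of 50 pairs in ventricles and in 49 of 50 in atria. The share over all genes was counted neither for the order of the means nor for these overlaps. Members and pairs are not separate observations, since the members moved together over the same libraries. The place of a cohort within the order was not tested and is not taken as resolved at 3 libraries a cohort. The spread of the members was wide for this data set, with a biological coefficient of variation of 32.6% (Tap2) to 64.1% (H2-Aa) in ventricles, where the common value was 19.8%, and of 18% to 47.1% in atria, where it was 15.1%.

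Ventricle and atria ranked the replicates of a cohort alike. The summed TPM of the 7 class I genes in +dox mice was 1039, 507 and 2683 in ventricles and 1061, 891 and 2391 in atria. The order of the 3 replicate numbers by this sum was the same in both tissues in 6 of 6 cohorts. By the sum of the 3 class II genes it was the same in 5 of 6, and MBNL2 was the exception. Replicate 3 was the highest by the class I sum in the +dox, MBNL1, MBNL2 and +/–dox cohorts, but not in the –dox cohort, where replicate 2 was highest, nor in MBNL1+MBNL2, where replicate 1 was.

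**Figure D3:**
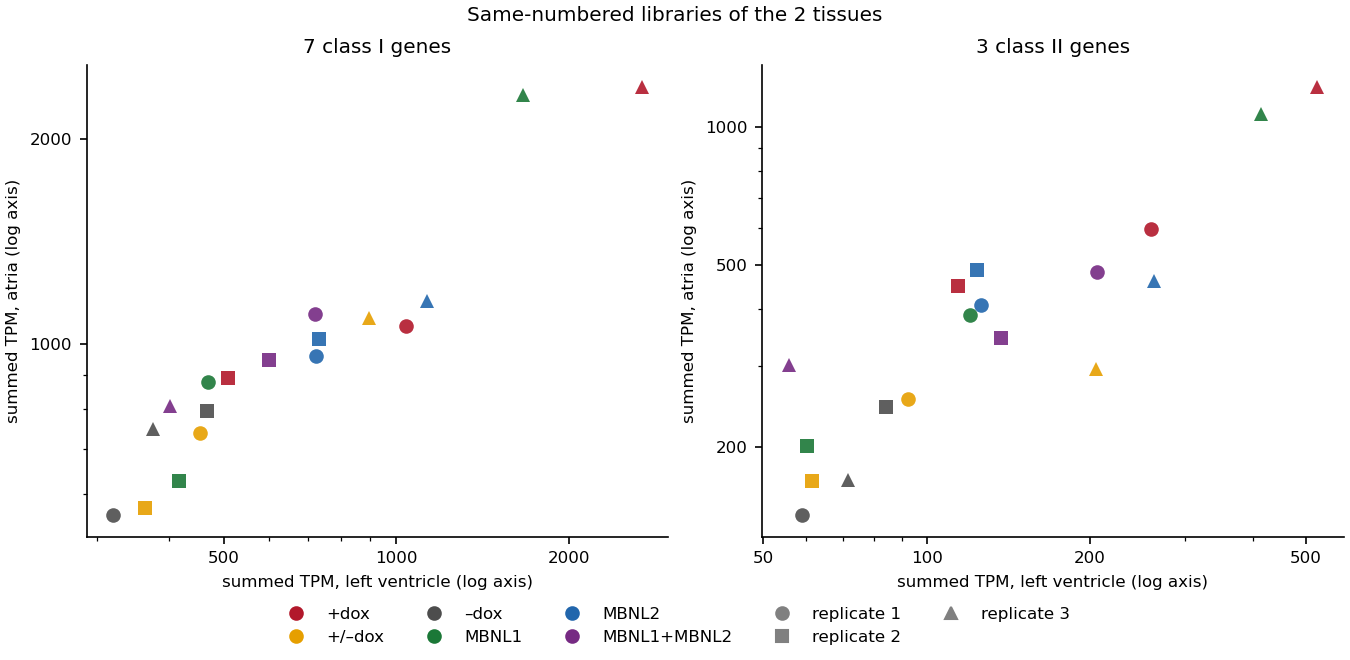
Summed TPM of the 7 class I genes (left panel) and the 3 class II genes (right panel) in the left ventricle (horizontal, log axis) against the atria (vertical, log axis), with 1 point for each cohort and replicate number. Replicate 3 of +dox and of MBNL1 stands at the upper right in both panels, at class I sums of 2683 and 1664 in ventricles and 2391 and 2321 in atria. Both tissues came from the same 3 animals of a cohort, and replicate 3 of 5 cohorts is the 1 female in each tissue.

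Between tissues of –dox mice, 0 members were called or reached an unadjusted p below 0.05 in the unpaired edgeR fit, where 24.9% of all genes were called and 9295 of 19231 had such a p. DESeq2 called 0 and limma on TPM called 1. All 10 were above 0 in the direction of atria over ventricle with a median of 0.53 on the log2 scale, from 0.05 (B2m) to 0.87 ± 0.67 SE (H2-Ab1, edgeR adjusted p = 0.325). Both tissues came from the same animals, and with libraries of 1 cohort and replicate number as a block 3 members were called higher in atria, where 25% of all genes were called. These were H2-Ab1 (0.86 ± 0.26 SE, edgeR adjusted p = 0.0159), Cd74 (0.81 ± 0.27, 0.0274) and H2-K1 (0.66 ± 0.22, 0.0249), while H2-D1 (0.49 ± 0.10, 0.000432) and Tap2 (0.57 ± 0.14, 0.00366) passed the adjusted p but not the fold of 1.5. Macrophage markers were called higher in –dox atria for 7 of 10 genes, with Csf1r, the receptor for colony stimulating factor, at 1.04 ± 0.14 (edgeR adjusted p = 3.52e-07) and Lyz2 at 0.97 ± 0.18 (7.1e-05). The difference of the –dox effect between tissues was tested as an interaction (the atrial log2 fold change less the ventricular), and 0 members were called by the unpaired edgeR fit where 0.764% of all genes were. The class II genes had interactions of −0.08 to 0.03 and the class I genes 0.35 to 1.07, the smallest adjusted p being 0.651 (Tap2, 0.67 ± 0.45, edgeR). The interaction for +/–dox called 0 members, where 0.489% of all genes were called. In both interactions 0 members had an unadjusted p below 0.05 without pairing, and DESeq2 and limma called 0. Of all 19231 genes, 2120 (–dox) and 2438 (+/–dox) had such a p. With the block, 0 members were called by edgeR for –dox or +/–dox, where 1.55% and 1.2% of all genes were, and 5 (B2m, Tap1, Tap2, Psmb8 and Psmb9) and 1 (B2m) had an unadjusted p below 0.05. The number of all genes with such a p was not counted for the block. The –dox interactions were then 0.29 to 0.92 for class I genes and −0.21 to −0.06 for class II genes, with the smallest adjusted p at 0.0795 (Psmb9, 0.85 ± 0.25 SE, edgeR). For –dox against +dox, the class I genes H2-K1, B2m, Tap1, Psmb8 and Psmb9 passed in ventricles, and no class I gene passed in atria. However, no member's difference of this effect between the tissues passed the threshold in either fit.

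Other genes of the routes were read from lists. Of 17 other class I genes, 5 were called in –dox ventricles (7.6% of all genes were called), all lower, with a median of −0.63. They were Nlrc5, the class I transactivator (−2.60 ± 0.87 SE, edgeR adjusted p = 0.0338), the class I-like genes H2-Q6 (−1.96 ± 0.70, 0.0491) and H2-T22 (−1.36 ± 0.44, 0.0278), the peptide-trimming Erap1 (−0.72 ± 0.19, 0.00764) and the proteasome activator subunit Psme2 (−0.60 ± 0.18, 0.0154). Nlrc5 was at 3.57, 0.59 and 8.68 TPM in +dox ventricles and at 0.38, 1.21 and 0.56 TPM in –dox ventricles, with replicate 2 of +dox inside the –dox range. The chaperones Calr and Canx, the most abundant of the list, were not called (Calr 150, 141 and 178 TPM against 107, 116 and 115 TPM in those ventricles). In atria 0 of the 17 were called by edgeR in –dox mice, with a median of −0.35 and Calr at 239, 251 and 267 TPM against 193, 184 and 201 TPM.

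Of 13 other class II genes, 5 were called in –dox ventricles and 4 in –dox atria (7.6% and 5.23% of all genes were called), all lower, with medians of −1.39 and −0.87. H2-DMa, H2-DMb1 and H2-DMb2 encode the exchange factor that loads peptide onto class II, and H2-Eb1 is the beta chain of I-E. The log2 fold change of H2-DMa was −2.06 ± 0.64 SE in ventricles (edgeR adjusted p = 0.0239) and −1.98 ± 0.62 in atria (0.0295). The calls of H2-DMb1 were at −1.76 and −2.03, those of H2-DMb2 at −2.14 and −2.07 and those of H2-Eb1 at −1.53 and −1.70. H2-DMa was at 22.1, 13.6 and 48.8 TPM in +dox atria and at 4.74, 8.04 and 7.07 TPM in –dox atria, without overlap. Ctss, the cathepsin that trims the invariant chain, was called in ventricles (−0.89 ± 0.26, edgeR adjusted p = 0.0177), and Lgmn, the most abundant of the list, was not (80.5, 70.9 and 66.3 TPM against 68.4, 68.9 and 68.9 TPM in ventricles). In the +/–dox cohort Erap1 (−0.72) and Ctss (−0.85) were the genes of these lists called in ventricles, and 0 were called in atria by edgeR. In the MBNL comparisons Erap1 was called in MBNL2 (−0.63) and MBNL1+MBNL2 ventricles (−0.66), and Psmb10 (−0.75) and Psme2 (−0.60), the other inducible proteasome genes, in MBNL1+MBNL2 ventricles.

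The 14 constitutive proteasome genes had 0 calls by edgeR in –dox or +/–dox mice of either tissue (3.99% to 7.6% of all genes were called). Their medians were −0.19 and −0.17 in ventricles and −0.17 and −0.09 in atria, for –dox and +/–dox. Summed, they spanned 1289 to 1645 TPM over ventricular libraries and 1487 to 1872 TPM over atrial libraries, where the class I members spanned 320 to 2683 and 559 to 2391 TPM. Psma7, their most abundant gene in ventricles beside Psmb6, was at 195, 169 and 172 TPM in +dox and at 132, 147 and 173 TPM in –dox ventricles.

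**Figure D4:**
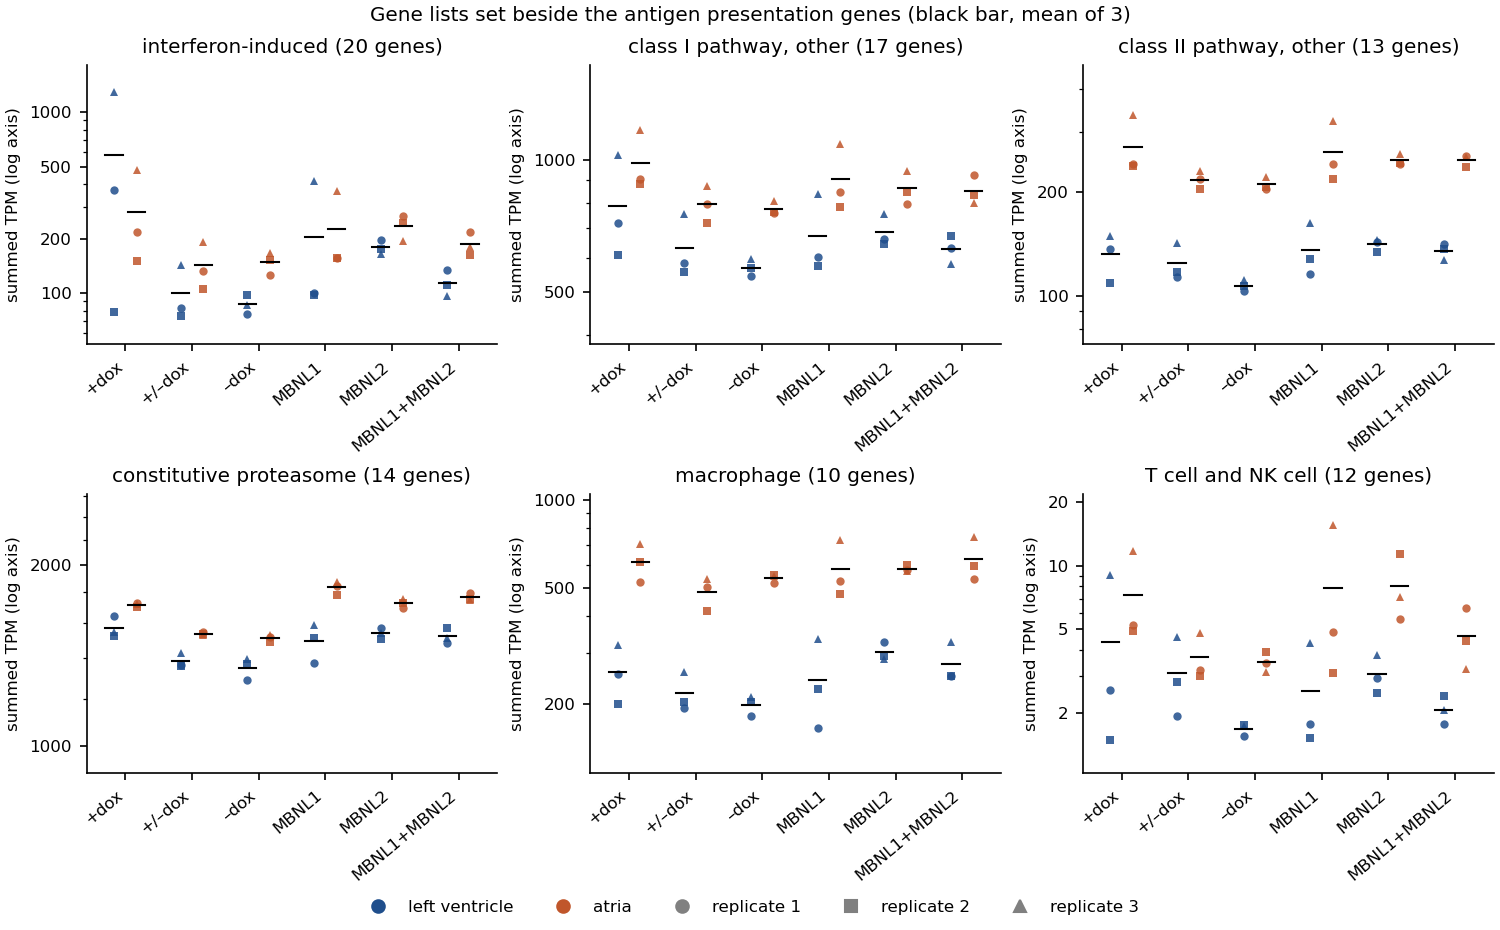
Summed TPM (log axis) of 6 gene lists by cohort, with 1 symbol per library, colour for the tissue and a black bar for the mean of 3. The interferon-induced list reaches 1299 and 415 TPM in replicate 3 of +dox and MBNL1 ventricles, where –dox ventricles lie at 76.4 to 98.0 TPM, and the constitutive proteasome list stays within 1289 to 1645 TPM in ventricles.

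The interferon-induced list had 9 of 20 genes called in –dox ventricles (7.6% of all genes were called), all lower, and a median of −1.25 with all 20 below 0. Among them were the GTPases Igtp (−5.54 ± 1.28 SE, edgeR adjusted p = 0.00287), Irgm1 (−2.60 ± 0.66, 0.00623), Gbp3 (−2.11) and Gbp2 (−1.35), the factors Stat2 (−0.90) and Irf9 (−1.34), the nucleic acid sensor Zbp1 (−2.92) and the tethering factor Bst2 (−1.23). Igtp was at 191, 9.43 and 796 TPM in +dox ventricles and at 5.54, 9.74 and 4.36 TPM in –dox ventricles. In this gene +dox replicate 2 lay below the highest –dox library, as it did for Tap1, Psmb8 and Psmb9. In +/–dox ventricles, where 6.6% of all genes were called, 6 of 20 were called (among them Irf9, Gbp3, Irgm1, Igtp and the chemokine Cxcl9, at −2.70), and Irgm1 and Igtp were called in MBNL2 and MBNL1+MBNL2 ventricles. In atria Usp18 (−1.79 ± 0.43, edgeR adjusted p = 0.00392) was the 1 gene of the 20 called in –dox mice, with a median of −0.91, and 0 were called in +/–dox mice by edgeR. Of all genes 5.23% and 3.99% were called in these comparisons, so the 1 call is near the share over all genes. The list summed to 217, 150 and 480 TPM in +dox atria, 157, 156 and 366 TPM in MBNL1 atria and 125, 152 and 166 TPM in –dox atria.

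Macrophages and dendritic cells are among the cells that hold class II. Of 10 macrophage markers, Cx3cr1 was called lower in –dox ventricles (−0.99 ± 0.35 SE, edgeR adjusted p = 0.0449) and atria (−1.18 ± 0.35, 0.0205), with list medians of −0.31 and −0.21. Their sum was 254, 200 and 319 TPM in +dox ventricles and 183 to 213 TPM in –dox ventricles, and 523, 614 and 706 TPM in +dox atria against 518 to 553 TPM. None of the 10 was at 0 in any library, with Lyz2 and C1qa the most abundant. Lyz2 was at 96.9, 85.9 and 141 TPM in +dox and at 74.3, 86.4 and 82.8 TPM in –dox ventricles. Of 6 dendritic cell markers Flt3 was called in –dox ventricles (−2.30 ± 0.84, edgeR adjusted p = 0.0496, at no more than 0.44 TPM), and Cd209a in MBNL1+MBNL2 ventricles (−1.73). The most abundant of the list, Zbtb46 and Clec9a, were at 4.09 to 4.73 and 0.99 to 1.79 TPM in +dox ventricles and at 5.25 to 6.11 and 1.77 to 2.05 TPM in –dox ventricles. Of all genes, 7.6% were called in –dox ventricles, 5.23% in –dox atria and 2.65% in MBNL1+MBNL2 ventricles. Single calls in these short lists are therefore not read as a result about the cells.

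Lymphocyte markers were low throughout. The 6 B cell markers summed to 0.45 to 1.2 TPM in ventricles and 0.72 to 1.85 TPM in atria, and 0 were called by edgeR against +dox, with Cd79a at no more than 0.36 TPM in +dox and –dox ventricles. Of 11 T cell and NK cell markers tested, Cd3g was called in –dox ventricles (−1.65 ± 0.60 SE, edgeR adjusted p = 0.0474), and all 11 were below 0 in both tissues, with medians of −1.15 and −1.02. Of all genes 7.6% were called in –dox ventricles, so the 1 call is near the share over all genes. The sum of the 12 listed reached 11.7 TPM in +dox atrium 3 and 15.6 TPM in MBNL1 atrium 3, where the –dox atria lay at 3.16 to 3.91 TPM. It was also 11.4 TPM in MBNL2 atrium 2. Of that cohort's atria, replicate 2 was highest in Cd74 (300.02 TPM) and H2-Ab1, and replicate 3 in H2-Aa (107 TPM) and the class I sum (1154 TPM). In 3 of the 12 a library at 0 occurred in atria. The part of these cells in the members' levels was not tested.

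Of the remaining lists, Tie1 of 5 endothelial markers (0.67 ± 0.10) and Ryr2 of 5 cardiomyocyte markers (0.96 ± 0.07 SE, edgeR adjusted p = 2.23e-11) were called higher in –dox ventricles, and Ryr2 (0.69) in –dox atria. Tnnt2 (0.64) and Ryr2 (1.05) were called higher in +/–dox ventricles and Ryr2 (0.72) in +/–dox atria. Ryr2 was at 79.5, 77.6 and 79.3 TPM in +dox ventricles, so the cardiac calcium release channel did not share the members' spread among +dox animals. The 5 red blood cell genes had 0 calls by edgeR in –dox or +/–dox mice and Hba-a2 called in MBNL1 ventricles (−5.94 ± 1.75, adjusted p = 0.0337). Hba-a2 was at 0 in 4 of the 18 ventricular libraries. The mean summed TPM of the 5 genes was not lower, at 1041 in MBNL1 and 946 in +dox ventricles. The ventricle and atria lists had 0 calls by edgeR within a tissue, and the 4 lung genes did not pass the filter.

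Across the 36 libraries, with each gene's mean in the tissue removed, the members moved together, class II genes most closely with each other. On a log2 CPM scale (counts relative to the library total), H2-Ab1 and Cd74 had the highest Pearson r of all pairs of members, at 0.991, and Tap2 and Cd74 the lowest, at 0.625. With the mean of the 7 class I genes, 6 of the class I members had an r between 0.979 and 0.988, Tap2 had 0.837 and the class II genes 0.916 to 0.930. Among the 12871 other genes ranked, those most like the class I mean were Gbp8 (0.957), Irgm2 (0.957), H2-T10 (0.955) and Nlrc5 (0.951). Those most like the mean of the class II genes were Ciita (0.958), H2-DMb2 (0.957), H2-DMa (0.951), H2-Q4 (0.948) and H2-DMb1 (0.947). The median r with the class I mean was 0.870 for the other class I genes, 0.840 for the interferon-induced genes with a value, 0.546 for macrophage markers and 0.0913 for the constitutive proteasome. It was −0.521 for endothelial markers. For 5 genes that mark sex it was −0.623, from −0.641 (Kdm5d) to 0.546 (Xist). These are descriptions, since the points share animals, libraries and depth, replicate 3 of the +dox and MBNL1 cohorts lies far from the rest, and H2-Q4 may share reads with H2-K1 and H2-D1. Gbp8, an interferon-inducible GTPase, was at 1.62, 0.19 and 11.3 TPM in +dox ventricles and at 0.02, 0.21 and 0.05 TPM in –dox ventricles. Ciita was at 1.81, 1.25 and 6.13 TPM in +dox atria and at 0.42, 0.78 and 0.90 TPM in –dox atria, without overlap.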

How the data were processed

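RNA was measured in 36 libraries, 3 for each of 6 cohorts and 2 tissues, which were grouped by the sample labels. The authors made poly(A)-selected stranded libraries from 250 ng of RNA, sequenced paired 150 bp reads, aligned them to mm10 (GENCODE M25) with STAR 2.7.10b and ran RSEM 1.3.1. The deposited tables hold 1 row per gene symbol, with RSEM expected counts (deposited without normalization) and, separately, TPM that the authors deposited scaled by transcript length and depth. GENCODE M21 on GRCm38, used for coordinates, held 96.4% of the 55291 symbols. Expected counts were rounded and tested with the quasi-likelihood test of edgeR 4.0.16 (limma 3.58.1, R 4.3.3), with 12 group means, TMM scaling, robust dispersions and filterByExpr, which kept 19231 genes. Adjusted p-values cover all genes of a comparison, and calls needed an adjusted p below 0.05 and a fold of at least 1.5, as in the authors' own test. A gene near 0 counts would have been dropped by that filter. Tests of –dox, +/–dox and the MBNL cohorts against +dox, of –dox against +/–dox and of the tissues came from this 1 fit.

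Alternatives were DESeq2 1.42.0, limma on log2(TPM + 1), relative log expression scaling, no filter, an adjusted p alone, the compared libraries alone, a replicate block, a library set term, each library left out and, chosen after seeing the data, set A alone, a sex term and, between tissues, a block of cohort and replicate number. The sample list of the study gives the same animals for both tissues. Deviations from the group mean correlated at 0.041 to 0.257 between same-numbered ventricle and atria, with every pair above 0.1 in 3 of 6 cohorts (+dox and –dox among them), and 17 of 18 ventricles correlated best with the atria of their own number. The members, gene lists and tests were chosen with earlier results of these data known. All 10 members are named, with the genes of each list that were called against +dox or had the 2 highest mean TPM, and the 5 genes most alike by Pearson r on log2 CPM (prior count 2) less the tissue mean, at a mean TPM of at least 1. An item that this rule would name is not reported here. Genes called between tissues are given as examples and were chosen after their values were seen. Motif shares leave out 1 chromosome. The test was checked on counts simulated for –dox against +dox ventricles. Of 50 genes changed 2-fold with at least the spread of the least variable member, 12% were called. Of 50 such genes changed 4-fold 74% were called, and of 50 with a lower spread changed 2-fold 88%. A member that was not called is thus not shown to be unchanged. Python 3.11.15 with numpy 2.4.6, pandas 2.3.3 and matplotlib 3.10.9 did the rest. Splicing was not analysed here.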

Additional observations from a re-analysis of the deposited data

How the results depend on the processing

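Of 15 counts of called members, 8 kept their value or stayed within 1.5 times of it under every alternative. For –dox ventricles (7 called) the count was 1 with set A alone, 0 with the compared libraries alone and 3 with limma, and 0 to 9 with a library left out. For +/–dox ventricles (1 called) it was 0 with no filter, with the compared libraries alone and with limma, 2 with DESeq2, 5 with a library set term, 5 with a sex term, and 0 to 4 with a library left out (0 without +dox 1, +dox 3, +/–dox 1 or +/–dox 2, and 4 without +dox 2). A replicate block raised it to 2 (B2m and Psmb8) and moved no other count by over 1.5 times. Same-numbered libraries of a tissue had deviations correlated between cohorts at −0.115 to 0.29 over 36 pairs, and 0 of 12 comparisons had all pairs above 0.1, so the numbers were not taken to pair cohorts. For MBNL1 ventricles (0) the range with a library left out was 0 to 3, with 3 when MBNL1 replicate 3 was left out. For MBNL1+MBNL2 ventricles (0) the count was 9 with a library set term and 2 with DESeq2, with 0 to 3 when a library was left out (3 without +dox replicate 2). For –dox atria (3) it was 0 with no filter, 0 with set A alone, 1 with the compared libraries alone and 0 to 3 with a library left out. For +/–dox atria (0) it was 2 with a library set term, a sex term or DESeq2. Between the tissues of –dox mice (0) it was 1 with set A alone, 3 with the compared libraries alone, 3 with the block of cohort and number and 1 with limma. The cause of these changes was not tested, apart from the fewer samples in fits that leave libraries out. Apart from the block between tissues, the share of all genes called under an alternative is not given, so no change is read as particular to the members.

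The direction of 37 of the 40 single-member values for –dox and +/–dox held under all alternatives, and Tap2 was the exception in 3 comparisons. With a library left out, its log2 fold change ranged from −0.67 to 0.0745 in +/–dox ventricles, from −0.0959 to 0.41 in –dox atria and from −0.14 to 0.36 in +/–dox atria. None of the 11 single calls held under every alternative. The median of the members reversed in MBNL1 atria (−1.02 to 0.24 with a library left out) and MBNL2 atria (−0.87 to 0.0594). A sex term called 0 members in any MBNL comparison. At 55.03 to 97.09 M reads a library, all 10 members passed the filter on low counts.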
